A study of Mus musculus with 16 samples.

Results

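Transcripts of 8 genes that lie downstream of the kinase ERK were followed in 16 mouse tumors: the transcription factors Etv4, Etv5, Egr1, Fos, Fosl1 and Myc, the cell cycle gene Ccnd1, which encodes cyclin D1, and the ephrin receptor gene Epha2. The genes were chosen by name, as known outputs of the pathway, out of 18193 genes that have a probe set of their own on the array. They and the lists of related genes below were chosen with earlier results of these data known. Counts set beside shares of the whole array therefore describe these genes and are no independent test. Every probe set annotated to 1 of the 8 genes alone was taken, which gave 14 of the 45037 probe sets tested. Etv5 and Ccnd1 have 3 probe sets each, Etv4 and Fosl1 have 2 each, and the remaining 4 genes have 1 each.

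The tumors grew from B16-OVA cells, a mouse melanoma line that expresses chicken ovalbumin, injected into the flank of C57BL/6-Ly5.1 mice of 6 to 12 weeks. Each of the 4 groups held 4 tumors from separate mice, and all were taken at day 18 after inoculation. Control mice received vehicle (MCT) and a control IgG. The CD40 group received vehicle and an agonist antibody against CD40 of the mIgG1 isotype, given on treatment days 3, 5 and 7 and again 1 day before the analysis. The MEKi group received the MEK inhibitor GDC-0623 at 30 mg/kg daily for about 2 weeks together with control IgG, and the MEKi+CD40 group received GDC-0623 and the CD40 antibody. The comparisons ask whether each drug alone, or their combination, changed transcripts that report ERK activity in the tumor. The time between the last dose of GDC-0623 and the removal of the tumor was not stated in the sources read.

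In growth signalling, RAF kinases activate MEK, and MEK phosphorylates and activates ERK. Active ERK phosphorylates transcription factors already present in the cell, so that immediate early genes such as Fos and Egr1 are switched on within minutes. Etv4, Etv5, Fosl1 and Ccnd1 follow with sustained signalling. Melanoma lines often depend on this pathway for division, and cyclin D1 is the step through which it reaches the cell cycle.

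Promoter sequences are shown for Etv5, the member called in the tests below, and for Fos, which was not called in any comparison, so that the windows before the start of both genes can be compared. They come from RefSeq on build GRCm38.p6. The set of promoters used here held 4 for 3 of the 8 genes (Epha2, Etv5 and Fos), and the other 5 genes were not in it. Each has 300 bases, from 250 before the annotated start to 50 from it on. Capitals mark matches, on either strand, to an ETS core (GGAAGT), a CRE core (TGACGT) or a CCAAT box (CCAAT). The promoters of Etv5 lie on the minus strand of chromosome 16 at chr16:22439521-22439820 and chr16:22438319-22438618, and that of Fos lies on the plus strand at chr12:85473640-85473939.
Etv5 upstream promoter: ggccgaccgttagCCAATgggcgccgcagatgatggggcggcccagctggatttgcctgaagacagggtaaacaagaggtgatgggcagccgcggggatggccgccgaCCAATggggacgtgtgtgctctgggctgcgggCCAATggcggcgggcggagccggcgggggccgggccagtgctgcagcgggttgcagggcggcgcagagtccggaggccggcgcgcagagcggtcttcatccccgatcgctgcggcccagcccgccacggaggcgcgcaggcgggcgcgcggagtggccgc
Etv5 downstream promoter: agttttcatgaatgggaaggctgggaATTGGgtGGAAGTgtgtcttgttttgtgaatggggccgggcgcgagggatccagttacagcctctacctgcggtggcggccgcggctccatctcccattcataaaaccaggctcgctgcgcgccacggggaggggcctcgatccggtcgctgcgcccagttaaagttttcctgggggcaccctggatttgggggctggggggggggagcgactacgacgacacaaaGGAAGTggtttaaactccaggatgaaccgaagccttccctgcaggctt
Fos promoter: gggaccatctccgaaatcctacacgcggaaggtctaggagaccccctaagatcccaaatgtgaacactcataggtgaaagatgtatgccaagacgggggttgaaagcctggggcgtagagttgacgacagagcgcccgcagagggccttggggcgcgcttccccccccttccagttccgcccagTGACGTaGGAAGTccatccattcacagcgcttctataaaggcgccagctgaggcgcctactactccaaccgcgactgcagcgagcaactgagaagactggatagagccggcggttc

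The upstream promoter of Etv5 held 3 CCAAT boxes and no ETS core, while the downstream one held 2 ETS cores and 1 CCAAT box. In the Fos promoter the CRE core and the ETS core stood side by side, with 1 base between them. The window of Epha2 held 2 ETS cores and 2 overlapping matches to the CRE core, 1 on each strand. None of the 4 promoters held an AP-1 site (TGANTCA) or an E-box (CACGTG). Of all 32851 promoters of the same length, 23.8% held the ETS core, 7.51% the CRE core, 37.4% the CCAAT box, 7.81% the AP-1 site and 7.15% the E-box. These matches describe letters in a window and do not identify bound sites.

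Each array gave log2 signals, on which a difference of 1 is a doubling, and the number of arrays limited the precision. A background level of 4.95 was set from 43 probe sets of olfactory receptors, genes of the nose, and 39.9% of all probe sets had a mean below it. Of the 14 probe sets, 12 lay above it on average, and the probe sets Etv4 1443381_at and Fosl1 1417488_at lay below. Melanocyte markers, which define the labelled tumor, were high in all 16 tumors, with a mean of 8 markers between 13.45 and 13.76, and keratinocyte markers lay below background on average for 5 of 5 genes. Skeletal muscle markers stood apart in 3 tumors, at 12.5 in MEKi+CD40 tumor 1, 9.86 in MEKi+CD40 tumor 3 and 8.40 in CD40 tumor 3, against 4.48 to 5.76 elsewhere. MEKi+CD40 tumor 1 also showed a 3′ signal of Gapdh well above the 5′ signal, by 0.38 against at most 0.08 in the other tumors. Without these 3 tumors, 1 of the 14 probe sets was called in MEKi+CD40 against CD40 (Etv5 1450082_s_at, lower), where 852 of all 45037 were called lower. In every other comparison that held one of them, the interaction included, 0 of the 14 and 0 of all probe sets were called.

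Etv5 transcripts were lower in the MEKi+CD40 tumors than in either single treatment group on all of its probe sets. The brightest, 1428142_at, did not pass the adjusted test against CD40 or MEKi (limma adjusted p 0.098 and 0.0798). The calls came from dimmer probe sets whose means in the MEKi+CD40 group lay below background. Ccnd1 had the same direction on all of its probe sets, without passing the adjusted test. Neither drug alone gave a difference that passed the test for any of the 8 genes. Epha2 and Fos overlapped between all groups, Egr1 spread widely, and Fosl1 was high in a few tumors of 3 groups. Differences were tested with limma on the 8 arrays of each pair of groups, and the call required a p under 0.05 after Benjamini-Hochberg adjustment across the 45037 probe sets.

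**Figure D1:**
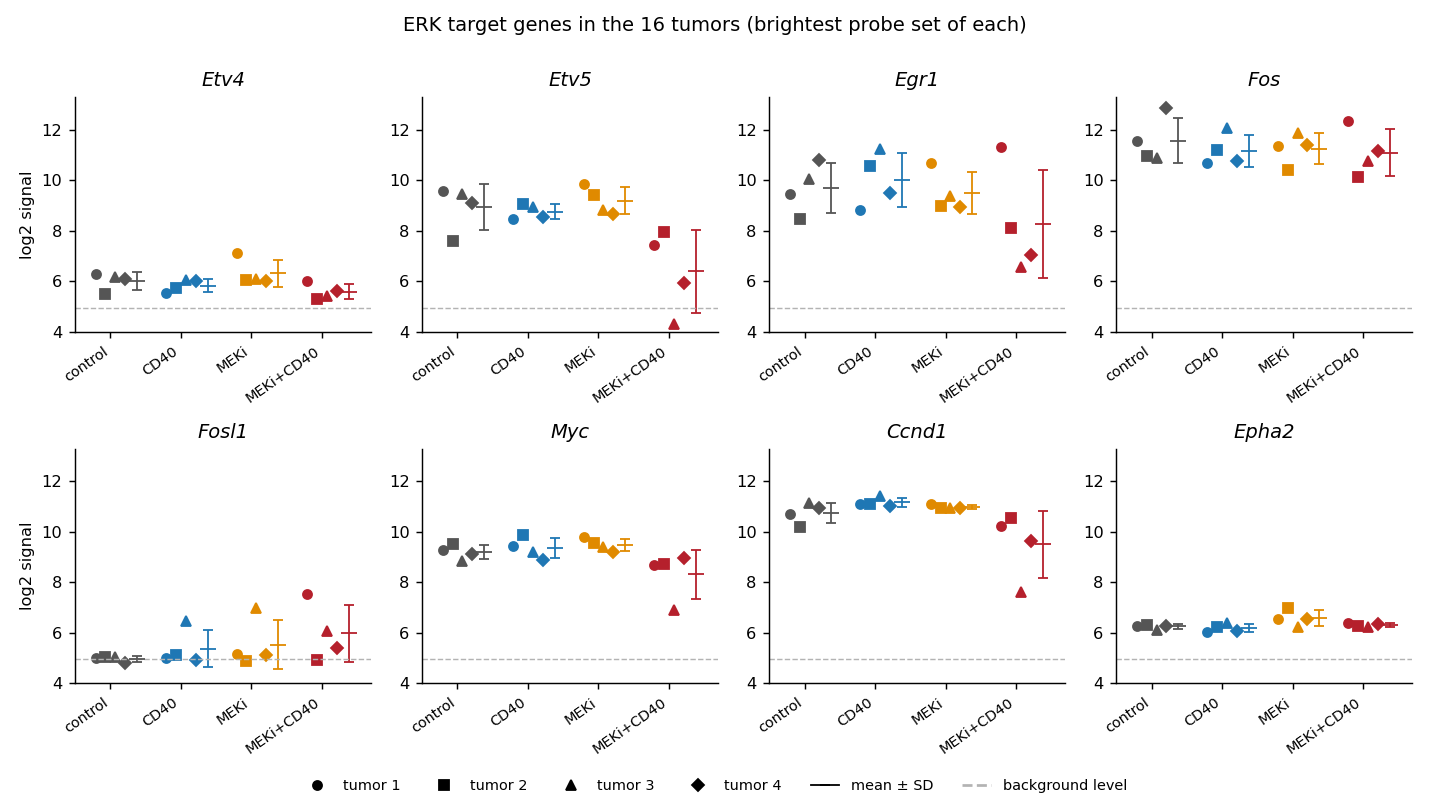
Log2 signal of the brightest probe set of each of the 8 genes (vertical axis) in the 4 tumors of each group, with the marker shape giving the tumor number, the bar the mean and SD, and the dashed line the background level of 4.95. Etv5 and Ccnd1 lie lowest in the MEKi+CD40 tumors, down to 4.29 and 7.61 in tumor 3, while Fos and Epha2 overlap in every group.

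Etv5, an ETS factor of the PEA3 family, was brightest on probe set 1428142_at. Its signals were 9.58, 7.60, 9.46 and 9.10 in control tumors 1 to 4, 8.47, 9.06, 8.95 and 8.54 in the CD40 tumors, 9.84, 9.40, 8.83 and 8.68 in the MEKi tumors, and 7.42, 7.96, 4.29 and 5.91 in the MEKi+CD40 tumors. All 4 MEKi+CD40 tumors lay below every CD40 and every MEKi tumor, and control tumor 2, the lowest control, lay within their range. The group means ran from MEKi (9.19 ± 0.53, SD, n = 4) over control (8.94 ± 0.91) and CD40 (8.76 ± 0.29) to MEKi+CD40 (6.40 ± 1.65). The first 3 of these groups overlapped with one another. The MEKi+CD40 mean was 5.13-fold below the CD40 mean on this probe set (log2 difference −2.36, SE 0.71, adjusted p 0.098 by limma), which did not pass the test.

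The dimmer probe sets of Etv5 varied less within the MEKi+CD40 group (SD 0.59 and 0.46), and both passed the test against CD40. Probe set 1450082_s_at read 7.19, 5.36, 7.07 and 6.74 in control, 6.21, 6.52, 6.44 and 6.18 in CD40, 7.51, 7.17, 6.50 and 6.06 in MEKi, and 4.50, 5.46, 4.06 and 4.78 in MEKi+CD40 tumors. The MEKi+CD40 tumors again lay below all CD40 and all MEKi tumors. Etv5 fell by 1.64 on the log2 scale against CD40 (SE 0.27, 3.11-fold, limma adjusted p 0.0287) and fell by 2.11 against MEKi (SE 0.38, 4.32-fold, limma adjusted p 0.0496). Probe set 1420998_at, designed to the same target sequence, fell by 1.11 against CD40 (SE 0.22, 2.15-fold, limma adjusted p 0.0362), and its difference from MEKi was −1.58 (SE 0.30, adjusted p 0.051). The means of both dimmer probe sets in the MEKi+CD40 group, 4.70 and 4.80, lay below the background level, so the size of their fall is limited by background.

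The Etv5 calls depended on single tumors. Without CD40 tumors 1, 2, 3 or 4, or without MEKi+CD40 tumors 3 or 4, neither probe set passed the test against CD40, with adjusted p for 1450082_s_at from 0.0521 to 0.105. Its difference from CD40 lay between −1.89 and −1.42 over the 8 fits that each left out 1 tumor. Against MEKi, the call of 1450082_s_at remained without MEKi+CD40 tumor 2 and was lost without any other tumor, with differences from −2.36 to −1.88. Without the 3 tumors that held muscle transcripts, Etv5 1450082_s_at differed from CD40 by −1.18 (SE 0.21, limma adjusted p 0.039) and from MEKi by −1.69 (SE 0.41, adjusted p 0.151). Against control, the adjusted p of Etv5 1450082_s_at was 0.058 (difference −1.89, SE 0.44), and without control tumor 2, the lowest control, it was 0.0324 (difference −2.30). Of 8 fits that each left out 1 tumor, 2 were called against control, with adjusted p up to 0.173. The 3 probe sets of Etv5 correlated with one another at r between 0.901 and 0.972 over the 16 tumors.

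Etv4, the other PEA3 factor measured here, had a narrower range. Its brighter probe set read 6.29, 5.50, 6.17 and 6.07 in control, 5.52, 5.71, 6.03 and 6.02 in CD40, 7.11, 6.06, 6.09 and 5.99 in MEKi, and 6.02, 5.31, 5.42 and 5.60 in MEKi+CD40 tumors. The groups overlapped in every comparison, with MEKi tumor 1 and MEKi+CD40 tumor 2 at the ends. The largest difference of Etv4 was MEKi+CD40 against MEKi (−0.72, SE 0.27, 1.65-fold, limma adjusted p 0.173). The second probe set of Etv4 stayed below background in all 16 tumors, between 4.03 and 4.72.

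Egr1, a zinc finger factor of the immediate early class, spread widely within every group. It read 9.47, 8.48, 10.05 and 10.82 in control, 8.84, 10.57, 11.23 and 9.48 in CD40, 10.69, 8.98, 9.39 and 8.94 in MEKi, and 11.33, 8.11, 6.56 and 7.04 in MEKi+CD40 tumors. MEKi+CD40 tumors 2, 3 and 4 were the lowest of all 16, while MEKi+CD40 tumor 1 was the highest. The SD of Egr1 in the MEKi+CD40 group was 2.15, above that of 99.7% of all probe sets, and in the other groups it lay above that of 98.7% to 99.6%. Egr1 differed by −1.77 from CD40 (SE 1.02, limma adjusted p 0.369), and without MEKi+CD40 tumor 1, the tumor with the most muscle transcripts and the widest 3′ to 5′ gap, by −2.79 (adjusted p 0.0322). Of 8 fits that each left out 1 tumor, only 1 called Egr1 against CD40, with adjusted p up to 0.627. Without all 3 muscle tumors Egr1 differed from CD40 by −2.06 (adjusted p 0.0772). The part of muscle tissue and RNA quality in the Egr1 value of that tumor was not tested.

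Fos, the partner of JUN in the AP-1 factor, read 11.58, 10.98, 10.90 and 12.85 in control, 10.68, 11.19, 12.06 and 10.76 in CD40, 11.38, 10.39, 11.89 and 11.39 in MEKi, and 12.37, 10.13, 10.75 and 11.15 in MEKi+CD40 tumors. Every group overlapped with every other. Fos differed between MEKi+CD40 and CD40 by −0.07 (95% interval −1.18 to 1.04) and between MEKi and control by −0.32 (95% interval −1.32 to 0.69). A fall or a rise of Fos within these intervals remains possible.

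Fosl1 encodes FRA1, an AP-1 subunit that accumulates with sustained ERK signalling. Its brighter probe set read 5.01, 5.04, 5.04 and 4.78 in control, 5.01, 5.11, 6.45 and 4.91 in CD40, 5.14, 4.87, 6.96 and 5.12 in MEKi, and 7.53, 4.90, 6.05 and 5.39 in MEKi+CD40 tumors. It was near background in 12 tumors, at 4.78 to 5.39, and above 6 in the 4 others, CD40 tumor 3, MEKi tumor 3 and MEKi+CD40 tumors 1 and 3. Fibroblast markers, a mean of 6 genes that include the collagens Col1a1 and Col3a1, lay between 11.04 and 12.31 in the same 4 tumors and between 7.86 and 9.13 in the 12 others. Muscle markers were high in 3 of the 4, but not in MEKi tumor 3, where they were at 4.48. Fosl1 differed between MEKi+CD40 and control tumors by 1.0 (SE 0.49, limma adjusted p 0.287), and without the muscle tumors this difference was 0.18 (adjusted p 0.624). The second probe set of Fosl1 lay at 4.12 to 5.35 and above background in 2 tumors. The part of fibroblasts in the Fosl1 signal was not tested.

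**Figure D2:**
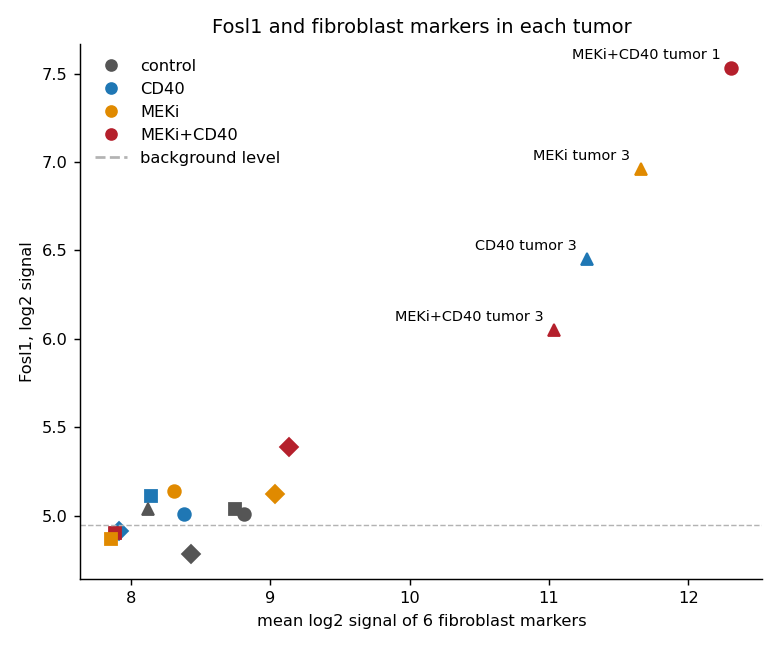
Log2 signal of Fosl1 (vertical axis) against the mean log2 signal of 6 fibroblast markers (horizontal axis) in each of the 16 tumors, with colors for the groups, shapes for the tumor numbers and a dashed line at the background level. The 4 tumors with Fosl1 at 6.05 to 7.53 are the 4 with fibroblast markers at 11.04 to 12.31.

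Myc, a factor that drives genes of ribosome production and growth, read 9.28, 9.53, 8.84 and 9.13 in control, 9.42, 9.86, 9.21 and 8.90 in CD40, 9.79, 9.54, 9.38 and 9.21 in MEKi, and 8.67, 8.73, 6.88 and 8.95 in MEKi+CD40 tumors. All MEKi+CD40 tumors lay below all MEKi tumors, and MEKi+CD40 tumor 3 stood far below the other tumors of its group. Myc differed by −1.17 from MEKi (SE 0.42, 2.25-fold, limma adjusted p 0.164) and by −1.04 from CD40 (SE 0.44, adjusted p 0.225). Without the 3 muscle tumors, one of which is tumor 3, the difference of Myc from MEKi was −0.64 (adjusted p 0.167).

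Ccnd1, whose product cyclin D1 pairs with CDK4 and CDK6 to start the cell cycle, was read by 3 bright probe sets. Probe set 1417420_at gave 10.72, 10.20, 11.16 and 10.93 in control, 11.11, 11.11, 11.43 and 11.03 in CD40, 11.12, 10.94, 10.94 and 10.96 in MEKi, and 10.22, 10.53, 7.61 and 9.64 in MEKi+CD40 tumors. All MEKi+CD40 tumors lay below all CD40 and MEKi tumors, and tumors 3 and 4 lay below every other tumor of the study. The means ran from CD40 (11.17 ± 0.18, SD, n = 4) over MEKi (10.99 ± 0.09) and control (10.75 ± 0.41) to MEKi+CD40 (9.50 ± 1.31).

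Probe set 1417419_at of Ccnd1 came closest to the threshold. It gave 8.99, 8.61, 9.63 and 9.11 in control, 9.11, 9.83, 9.86 and 9.07 in CD40, 9.16, 9.05, 9.24 and 9.20 in MEKi, and 7.81, 8.64, 6.18 and 7.13 in MEKi+CD40 tumors. These groups did not overlap with CD40 or MEKi either. Ccnd1 differed on this probe set by −2.03 from CD40 (SE 0.48, 4.08-fold, limma adjusted p 0.053) and by −1.72 from MEKi (SE 0.45, adjusted p 0.0767). Without MEKi+CD40 tumor 2, the highest of its group, both differences passed (−2.43, adjusted p 0.0241, and −2.12, adjusted p 0.0384). Without MEKi+CD40 tumor 1 the one against CD40 did (−2.15, adjusted p 0.0475). Leaving out a high tumor of the lower group enlarges the difference by construction. Of 8 fits that each left out 1 tumor, 2 were called against CD40, with adjusted p up to 0.157. Against MEKi it was 1 of 8, with adjusted p up to 0.199. Without the 3 muscle tumors Ccnd1 1417419_at differed by −1.45 from CD40 (adjusted p 0.119) and by −1.28 from MEKi (adjusted p 0.185). The 3 probe sets of Ccnd1 correlated at r between 0.921 and 0.975 over the tumors.

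Epha2, a receptor tyrosine kinase for ephrin-A ligands, had the narrowest range among the probe sets above background, from 6.03 to 6.99. Epha2 read 6.28, 6.31, 6.12 and 6.27 in control, 6.03, 6.22, 6.40 and 6.07 in CD40, 6.54, 6.99, 6.23 and 6.56 in MEKi, and 6.38, 6.25, 6.22 and 6.34 in MEKi+CD40 tumors. MEKi tumor 2 was the highest, and the groups overlapped throughout. The MEKi mean was 0.34 above control (SE 0.14, unadjusted p 0.0429 and adjusted p 0.711 in the limma fit of both groups).

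Counted over the 14 probe sets, the members had few differences with either drug alone, as had the array as a whole. In CD40 against control, 0 of 14 were called, as were 0% of all probe sets, 1 had an unadjusted limma p under 0.05 (Ccnd1 1448698_at, 0.52 higher) against 8.56% of all, and 0 had groups without overlap against 4.66% of all. In MEKi against control, 0 of 14 were called against 0% of all, 1 had an unadjusted p under 0.05 (Epha2) against 6.91% of all, and 0 had groups without overlap against 4.03% of all. Here 12 of the 14 differences were positive, with a median of 0.25 against 0.01 over all probe sets, and the smallest adjusted p was 0.711. No fall of an ERK target was thus detectable in tumors of mice given GDC-0623 alone, and for Etv5 1428142_at the 95% interval of the difference ran from −0.71 to 1.22.

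With the combination, low values of Etv5 and Ccnd1 made up most of the counts. In MEKi+CD40 against control, 0 of 14 were called against 0.00888% of all probe sets, 4 were lower at an unadjusted limma p under 0.05 (the 3 of Etv5 and Ccnd1 1417419_at) against 12.6% of all, and 0 were lower without overlap against 8.55%. Against CD40, 2 of 14 were called lower in MEKi+CD40 tumors, both of Etv5, against 2.46% of all, 7 were lower at an unadjusted p under 0.05 against 10.6%, and 6 were lower without overlap, the 3 of Etv5 and the 3 of Ccnd1, against 6.75%. Against MEKi, 1 was called lower against 0.624% of all, 7 were lower at an unadjusted p under 0.05 against 11.8%, and 6 were lower without overlap, the 3 of Etv5, 2 of Ccnd1 and that of Myc, against 7.83%. Probe sets of 1 gene read the same transcript, so the 6 in each comparison stand for 2 and 3 genes. The exact two-sided permutation p of these probe sets was 0.0286, the smallest that 4 against 4 tumors can give. Any probe set without overlap gives this value, so it restates the lack of overlap and is no further test.

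The median difference of the 14 probe sets was −1.0 against control, −1.07 against CD40 and −1.21 against MEKi, while the median of all probe sets was 0.01, 0.02 and −0.02. These 3 comparisons share the MEKi+CD40 tumors. When all 16 arrays shared 1 estimate of the spread, 4 member probe sets were called against control, 6 against CD40 and 6 against MEKi. The 3 of Etv5 were among them each time, and all of these calls were lower. Calls rose over the whole array in that fit, with 3285, 2825 and 2995 of all 45037 probe sets lower. The reported fits called 1, 1106 and 281 lower. Melanocyte markers were not lower in the MEKi+CD40 tumors, at 13.49 to 13.76 against 13.45 to 13.66 in CD40 and 13.49 to 13.72 in MEKi tumors, but signals near 14 are close to the upper end of the array. In whole tumors, fewer cells that express a gene and less RNA per cell cannot be told apart.

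**Figure D3:**
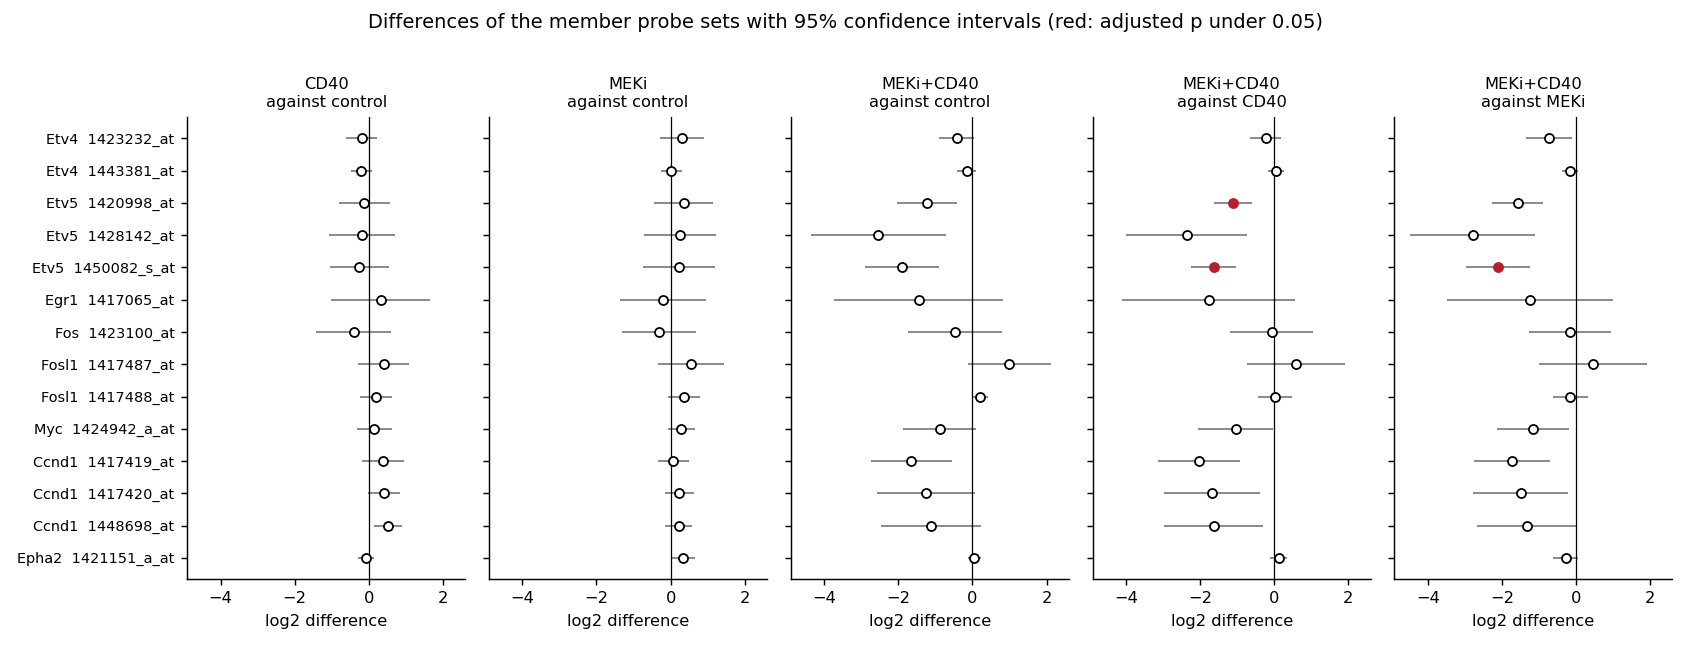
Log2 differences (horizontal axis) of the 14 member probe sets in the 5 pairs of groups, with bars for the 95% confidence intervals of the limma fit and 4 tumors per group. Filled red points mark the 2 probe sets of Etv5 called in MEKi+CD40 against CD40 and the 1 called against MEKi, and the 3 probe sets of Ccnd1 lie left of 0 in each comparison with the combination.

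The interaction asks whether the effect of GDC-0623 in the presence of the CD40 antibody differed from its effect without it. No member passed this test, as did 0% of all probe sets, and 7 of 14 were negative at an unadjusted limma p under 0.05 (the 3 of Etv5, the 3 of Ccnd1 and that of Myc) against 7.44% of all. The smallest adjusted p was that of Ccnd1 1417419_at (−2.11, SE 0.55, limma adjusted p 0.11). For Etv5 1450082_s_at the interaction was −1.86 (SE 0.56, adjusted p 0.134) and for Myc −1.32 (SE 0.50, adjusted p 0.23). Fos (0.24, SE 0.72) and Epha2 (−0.22, SE 0.18) had values smaller than or near their errors. Of 16 fits that each left out 1 tumor, 1 called Ccnd1 1417419_at, that without MEKi+CD40 tumor 2 (−2.51, limma adjusted p 0.0319). Its adjusted p reached 0.242 over the 16 fits. Calls rose over the whole array in the fit without tumor 2, with 423 of all 45037 probe sets lower against 0 as reported.

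Etv5 and Ccnd1 were low in the same tumors. Over the 16 tumors their brightest probe sets correlated at Pearson's r = 0.927 (permutation p 2e-05, 0.00056 after Benjamini-Hochberg adjustment over 28 pairs of members) and Spearman's rho = 0.655 (permutation p 0.00735, adjusted 0.0556). Without MEKi+CD40 tumors 3 and 4, the farthest from the median of Etv5, r was 0.717 (n = 14, permutation p 0.00428), and among the 12 tumors outside the MEKi+CD40 group it was 0.519. After the group means were subtracted it was 0.897. The lowest tumors of the combination group carried much of the relation, and a part of it remained without them.

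**Figure D4:**
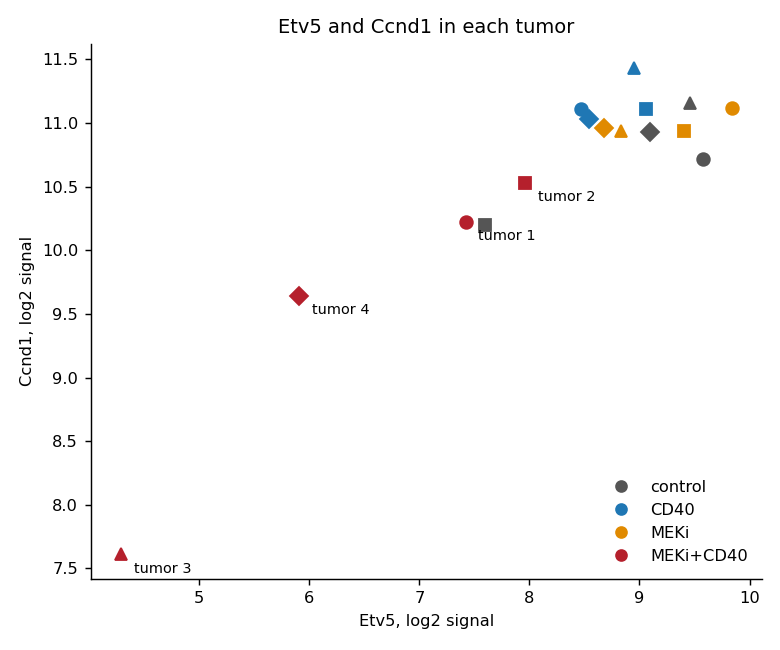
Log2 signals of Etv5 (probe set 1428142_at, horizontal axis) and Ccnd1 (1417420_at, vertical axis) in the 16 tumors, with colors for the groups and the 4 MEKi+CD40 tumors labelled. MEKi+CD40 tumor 3 is lowest on both axes, at 4.29 and 7.61, and control tumor 2 lies beside MEKi+CD40 tumor 1.

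Of the 28 pairs of members, 7 passed after adjustment by Pearson's r and 1 by Spearman's rho. Etv4 and Etv5, the PEA3 factors, were the pair that passed by rank (rho 0.839, permutation p 8e-05, adjusted 0.00224), with r = 0.636 (adjusted 0.0525) and r = 0.723 without the 2 farthest tumors. Egr1 and Fos, both immediate early genes, gave r = 0.634 (permutation p 0.00887, adjusted 0.0414), rho 0.676 (adjusted 0.0556) and r = 0.739 without the 2 farthest tumors. Myc and Ccnd1 gave r = 0.836 (permutation p 0.00638, adjusted 0.0357), but rho 0.402 (adjusted 0.314) and r = 0.311 without the 2 farthest tumors, so that relation rests on these tumors. The other pairs that passed by r, Etv5 with Egr1, Etv5 with Myc, Egr1 with Ccnd1 and Etv4 with Egr1, had r of 0.246, 0.441, 0.297 and 0.625 without their 2 farthest tumors. The permutations ran over all 16 tumors without regard to group, so their p also reflects shifts shared by a group. After the group means were subtracted, r was 0.463 for Etv4 with Etv5, 0.685 for Egr1 with Fos and 0.689 for Myc with Ccnd1. It was then 0.666 for Etv5 with Egr1, 0.566 for Etv5 with Myc, 0.595 for Egr1 with Ccnd1 and 0.658 for Etv4 with Egr1. Fosl1 and Epha2 had no pair that passed.

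The genes most like each member over the 16 tumors, among 12670 genes above background, were taken as a description. For Fos they were the AP-1 genes Jun (r = 0.911), Fosb (0.842) and Fosl2 (0.836). For Egr1 the list was Tatdn2 (0.92), Ints5 (0.918) and the immediate early gene Ier2 (0.916). Etv5 was most like Rbmx2 (0.975), Snrpa1 (0.973) and Rrm2 (0.971), the last a subunit of the enzyme that makes deoxynucleotides. Myc was most like Spred1 (0.934), Tsr1 (0.902) and Spry4 (0.885), of which Spred1 and Spry4 encode inhibitors of the ERK pathway. Fosl1 was most like Tmem45a (0.983), Medag (0.981) and the matrix gene Tnxb (0.98). Ccnd1 was most like Naa25 (0.958), Eef1e1 (0.958) and Arf4 (0.953), Etv4 like Midn (0.872), Arhgap39 (0.856) and Ankrd11 (0.844), and Epha2 like A230001M10Rik (0.812), Asphd1 (0.773) and Nrarp (0.737).

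Around the members, 6 lists of related genes were read in the same fits. The ERK feedback inhibitors, phosphatases and Sprouty or Spred proteins that ERK induces against itself, gave 0 of 9 called in any comparison. Their median was 0.14 in MEKi against control, and 9 of 9 were negative in MEKi+CD40 against CD40 (median −0.45 against 0.02 over all probe sets) and against MEKi (median −0.58 against −0.02). Dusp6, the ERK phosphatase, differed from CD40 by −0.58 (SE 0.24, limma adjusted p 0.211) without overlap, and Spred1 differed from MEKi by −0.58 (SE 0.21, adjusted p 0.164) without overlap. These values had the direction of Etv5 and did not pass. Without the 3 muscle tumors the medians of the feedback inhibitors were −0.17 against CD40 and −0.26 against MEKi.

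The immediate early and AP-1 genes gave 0 of 21 called in each comparison, with medians of −0.03 in MEKi against control, 0.02 in MEKi+CD40 against CD40 and 0.12 in MEKi+CD40 against MEKi. Without the 3 muscle tumors the latter medians were −0.16 and −0.23. Srf, the factor that switches on Fos and Egr1, came closest (−0.54 against MEKi, SE 0.13, limma adjusted p 0.0695, without overlap). Among 11 measured of 12 other ERK output genes, Hmga2, a chromatin protein, fell by 1.66 against CD40 (SE 0.36, limma adjusted p 0.042), and 0 others were called, where 2.46% of all probe sets were called lower. Of the 11, 8 were positive in this comparison, with a median of 0.21 against 0.02 over all probe sets. Without overlap, 1 was lower, against 6.75% of all, and 3 were higher. The share of all probe sets that were higher without overlap was not counted. Hmga2 was also called without the 3 muscle tumors (−1.12, adjusted p 0.0422). Vegfa was 0.50 higher in the same comparison (SE 0.13, adjusted p 0.0716). None of the 5 EPHA2 ligands was called, and Efna5 had the smallest p of them in MEKi+CD40 against MEKi (−0.47, SE 0.12, adjusted p 0.0799).

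Of 17 MYC partners and targets, 3 were called lower in MEKi+CD40 against CD40, where 2.46% of all probe sets were called lower: Odc1, the first enzyme of polyamine synthesis (−0.54, SE 0.08, limma adjusted p 0.0266), and the nucleolar proteins Fbl (−1.06, adjusted p 0.0302) and Nop58 (−1.26, adjusted p 0.038). Mxd4, which competes with MYC for its partner MAX, was called higher (1.15, SE 0.15, adjusted p 0.0249), where 2.28% of all probe sets were called higher. Against MEKi, 0 were called lower and Mxd1, of the same family of MYC antagonists, was called higher (0.98, SE 0.15, adjusted p 0.0496), where 0.526% of all were. The median of the 17 was −0.44 against CD40 and −0.35 against MEKi. Without the 3 muscle tumors, 4 were called lower against CD40, where 852 of all 45037 probe sets were. Odc1 and Nop58 were not among these calls (adjusted p 0.0514 and 0.088). Mxd1 was not called against MEKi without these tumors (adjusted p 0.137).

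Of 16 cyclin D1 partners and E2F targets, 6 were called lower in MEKi+CD40 against CD40 and 0 higher, where 2.46% and 2.28% of all probe sets were: Rbl1 (−0.98, limma adjusted p 0.0298), E2f1 (−0.75, adjusted p 0.0302), Pcna (−0.92, adjusted p 0.0305), Ccna2 (−1.11, adjusted p 0.0343), Mki67 (−0.92, adjusted p 0.0366) and Mcm2 (−1.14, adjusted p 0.0458). These encode a pocket protein, the factor that pocket proteins hold back, and proteins of DNA replication and the dividing cell. Against MEKi, E2f1 was called lower (−0.89, SE 0.14, adjusted p 0.0496), as were 0.624% of all. The median of the 16 was −0.70 against CD40 and −0.60 against MEKi, beside −0.02 in MEKi against control. Without the 3 muscle tumors, 6 of the 16 were called lower against CD40, where 852 of all 45037 probe sets were. Pcna was not among these 6 (limma adjusted p 0.061). E2f1 was not called against MEKi without these tumors (adjusted p 0.139).

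The shares of all probe sets beside the list counts include the 39.9% with a mean below background. In the fit with 1 probe set per gene, as in the lists, more of the array was called. Of 18193 genes, 811 were called lower and 768 higher against CD40, and 485 lower and 368 higher against MEKi. The list calls also depended on single tumors. Against CD40, 0 genes of the 6 lists were called without CD40 tumors 1, 2 or 4 or without MEKi+CD40 tumors 3 or 4. Without CD40 tumor 3, 2 cyclin D1 partners and E2F targets and 2 MYC partners and targets were called lower, and without MEKi+CD40 tumor 1 it was 8 of each. Against MEKi, 0 genes were called without any single MEKi tumor or without MEKi+CD40 tumor 3.

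**Figure D5:**
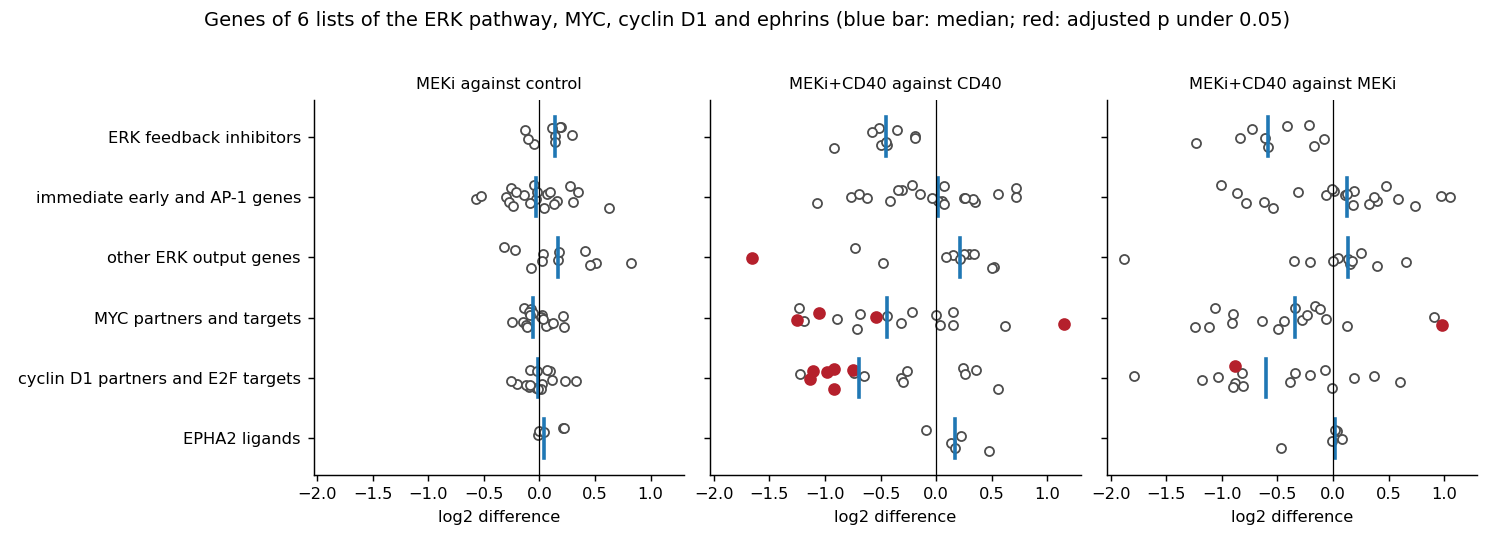
Log2 differences (horizontal axis) of the genes of 6 lists in MEKi against control and in MEKi+CD40 against CD40 and against MEKi, 1 point per gene, with a blue bar at the median and red points for an adjusted p under 0.05 by limma. In MEKi+CD40 against CD40 the medians of the ERK feedback inhibitors, the MYC list and the cyclin D1 list lie at −0.45, −0.44 and −0.70, and the immediate early genes lie around 0.

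Leukocytes also differed between the groups in which Etv5 was compared. The mean of 5 leukocyte markers ran from 9.02 to 11.12 in CD40, 5.74 to 7.94 in MEKi, 7.19 to 10.29 in MEKi+CD40 and 7.40 to 9.33 in control tumors. It was thus lower in MEKi+CD40 than in CD40 tumors and higher than in MEKi tumors on average, while Etv5 and Ccnd1 were lower in MEKi+CD40 than in both. The part of leukocytes in the members' signals was not tested.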

How the data were processed

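RNA of 16 whole B16-OVA tumors, 4 per group, (200 ng, 3′ IVT labelling) was read on Affymetrix arrays, 1 per tumor. The authors normalized the arrays with the robust multichip average (RMA) in Chipster, and the deposited values are log2 signals. The RMA version was not given. The values were used as deposited, after 64 control probe sets were left out. Groups came from the sample labels. Symbols came from the GEO platform annotation, in which 34945 probe sets have 1 symbol, 932 several and 9160 none.

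Pairs of groups were tested with limma 3.58.1 (R 4.3.3; lmFit, eBayes) on the 8 arrays concerned, and the interaction, the difference between MEKi+CD40 and MEKi less that between CD40 and control, on 16 arrays, with Benjamini-Hochberg adjustment over 45037 probe sets, after tests on simulated data. Correlations used 100000 permutations. Single values were compared by exact two-sided permutation tests. The members, the lists of related genes and the tests were chosen with earlier results of these data known.

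Named were all members in every comparison, up to 4 genes of each list and comparison by smallest p plus those that passed, of which the text gives a part, and the 3 genes most like each member. A list used the brightest probe set of each gene. Marker lists for melanocytes, leukocytes, macrophages, T cells, skeletal muscle, fibroblasts, endothelium and keratinocytes were averaged per tumor. Over the 4 groups, the group means of the macrophage list lay between 6.22 and 8.84, those of the T cell list between 5.35 and 6.55 and those of the endothelial list between 6.10 and 6.89. Alternatives were 1 fit of all arrays, the replicate number as a block, removal of dim probe sets, 1 probe set or a mean per gene, median centring, cyclic loess, array weights, a trended robust eBayes, and leaving out each tumor or the 3 muscle tumors. For the lists, leaving out tumors was added after seeing the data. Python 3.11.15 was used with numpy 2.4.6, pandas 2.3.3, scipy 1.17.1 and matplotlib 3.10.9.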

Additional observations from a re-analysis of the deposited data

Results flagged for a closer look

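In 7 of 56 sets of 4 tumors (14 probe sets in 4 groups), 1 tumor lay farther from its group than Dixon's test allows at the 95% level, by its gap to the nearest tumor over the range of the group. Chance flags about 1 in 20 such sets. Fosl1 gave 4 of the 7: on 1417487_at at 6.45 in CD40 tumor 3 (4.91 to 5.11 in the other tumors of the group), 6.96 in MEKi tumor 3 (4.87 to 5.14) and 4.78 in control tumor 4 (5.01 to 5.04), and on 1417488_at at 5.35 in MEKi tumor 3 (4.41 to 4.50). CD40 tumor 3 and MEKi tumor 3 are also those of their groups with the highest fibroblast markers, at 11.28 and 11.66. Etv4 was at 7.11 in MEKi tumor 1, against 5.99 to 6.09 in the rest of the group. Myc was at 6.88 in MEKi+CD40 tumor 3, against 8.67 to 8.95. Ccnd1 1417420_at was at 11.12 in MEKi tumor 1, in a group with an SD of 0.09 whose other tumors lay at 10.94 to 10.96.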

How the results depend on the processing

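Of 1512 values of the 84 member differences under the alternatives, 1403 kept their direction and their side of the threshold, 34 passed it where the reported value did not, 26 lost the call, and 49 changed sign, none of them a difference that had been called.

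Against control, 0 members of the MEKi+CD40 comparison were called as reported, 4 with all arrays in 1 fit, 1 with the filter on low signal, 1 with array weights and 0 to 2 without single tumors. Against CD40, 2 were called as reported, 6 with all arrays in 1 fit, 0 with 1 probe set per gene, 1 with probe sets averaged per gene, 1 without the muscle tumors and 0 to 4 without single tumors. Against MEKi, 1 was called as reported, 6 with all arrays in 1 fit, 2 with the filter, 0 with 1 probe set per gene, 0 with cyclic loess, 0 with median centring, 2 with trend and robust, 3 with array weights, 0 without the muscle tumors and 0 to 4 without single tumors. For the interaction the range without single tumors was 0 to 1. Over all probe sets, calls ran from 0 to 4904 against control (4 as reported), from 0 to 5309 against CD40 (2133 as reported) and from 0 to 4699 against MEKi (518 as reported), highest each time with all arrays in 1 fit, and reached 755 for the interaction with array weights. The cause was not tested. With the replicate number as a block, 0 members were called against CD40 and 0 against MEKi. The numbers were not used to pair tumors in the reported fits, since the sources read do not say that they mark a batch. Same-numbered tumors correlated at −0.57 to 0.46 in their deviations from the group means. Such values have both signs and cannot decide whether a batch was shared.

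The sign changed as follows, with the cause not tested. In CD40 against control, Egr1 was −0.0543 with array weights and −0.075 without the muscle tumors, and ran from −0.0833 to 0.72 without single tumors. In MEKi against control, Etv4 1443381_at was −0.015 with cyclic loess and Ccnd1 1417419_at −0.0121 with array weights. Fosl1 1417488_at was −0.0287 with cyclic loess in MEKi+CD40 against CD40. Fosl1 1417487_at was −0.38 without the muscle tumors in MEKi+CD40 against MEKi, and its interaction was −0.42 without them and −0.15 with the mean of its probe sets. Ranges without single tumors that held both signs were, in CD40 against control, −0.47 to 0.0308 for Etv5 1420998_at, −0.62 to 0.035 for Etv5 1428142_at, −0.70 to 0.0192 for Fos and −0.0183 to 0.30 for Myc. In MEKi against control they were −0.0808 to 0.26 for Ccnd1 1417419_at, −0.61 to 0.17 for Egr1, −0.035 to 0.12 for Etv4 1443381_at, −0.19 to 0.47 for Etv5 1428142_at, −0.19 to 0.47 for Etv5 1450082_s_at and −0.54 to 0.11 for Fos. In MEKi+CD40 against CD40 they were −0.0117 to 0.10 for Etv4 1443381_at, −0.50 to 0.25 for Fos and −0.12 to 0.20 for Fosl1 1417488_at. In MEKi+CD40 against MEKi they were −0.59 to 0.16 for Fos, −0.0758 to 0.92 for Fosl1 1417487_at and −0.24 to 0.0717 for Fosl1 1417488_at. For the interaction they were −0.0775 to 0.0825 for Etv4 1443381_at, −0.18 to 0.57 for Fos and −0.48 to 0.52 for Fosl1 1417487_at.

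With 4 tumors a group, differences of Egr1 and Fos, whose SD reached 2.15 and 0.95, could be seen only if large, and values of Etv4 1443381_at and Fosl1 1417488_at lay at background.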
